A study of Mus musculus with 6 samples.

Results

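The mRNAs of 46 genes that build, drive and check the mitotic spindle were followed in B16-OVA cells with and without Ythdf2. They were taken by gene symbol from a given list of mitotic cyclins and kinases, checkpoint, kinetochore, spindle, cytokinesis and anaphase genes, and all 46 were found among the 56734 symbols of the table. B16-OVA cells are mouse B16 melanoma cells made to express chicken ovalbumin. Polyadenylated RNA was sequenced from 3 libraries of WT cells and 3 libraries of Ythdf2-KO cells, which lack the cytoplasmic m6A reader YTHDF2 by genotype label and were grown in the same serum-containing medium. The sample titles tag WT as gNC and Ythdf2-KO as gY2; whether the knockout was 1 clone or a pool, and whether replicates were separate cultures, is not given in the sources used here. The p-values therefore measure only the spread between these libraries.

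Mitosis is run by cyclin-dependent kinase CDK1 bound to its cyclins, which triggers chromosome condensation and spindle assembly. Kinetochores, protein platforms built on centromeric chromatin, then bind microtubules, and the spindle assembly checkpoint holds back the anaphase-promoting complex (APC/C) until every chromosome is attached. The APC/C then marks cyclin B and securin for destruction, sister chromatids separate and the cell divides. Many of these genes are transcribed together in G2 and M by the MuvB complex, which acts with B-MYB and FOXM1 through a short promoter element named CHR, often next to CCAAT boxes bound by NF-Y.

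The promoters of the 3 genes with the largest and the 3 with the smallest differences between the genotypes, among those with a RefSeq window, show these elements. Each window runs from 250 bases before to 50 bases after the annotated start, in RefSeq on GRCm38.p6, not the GRCm39 build of the counts. Capitals mark the CHR letters TTTGAA or TTCGAA and the CCAAT letters, on either strand (TTCAAA and ATTGG are their reverse complements, and TTCGAA is its own). In Ube2c a pair of CCAAT matches on opposite strands overlaps as CCAATTGG.
Aurka: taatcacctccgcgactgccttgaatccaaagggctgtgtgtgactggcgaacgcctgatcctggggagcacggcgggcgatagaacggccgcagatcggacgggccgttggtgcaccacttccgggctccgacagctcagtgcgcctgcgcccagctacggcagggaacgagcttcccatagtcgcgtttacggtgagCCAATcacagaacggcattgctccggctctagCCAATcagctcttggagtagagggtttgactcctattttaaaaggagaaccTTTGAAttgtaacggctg
Ube2c: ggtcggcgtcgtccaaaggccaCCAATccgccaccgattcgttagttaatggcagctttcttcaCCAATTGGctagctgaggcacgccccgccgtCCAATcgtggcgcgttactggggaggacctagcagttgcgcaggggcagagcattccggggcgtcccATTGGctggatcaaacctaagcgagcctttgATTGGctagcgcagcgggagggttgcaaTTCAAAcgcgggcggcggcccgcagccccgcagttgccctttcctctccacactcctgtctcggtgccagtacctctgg
Bub1: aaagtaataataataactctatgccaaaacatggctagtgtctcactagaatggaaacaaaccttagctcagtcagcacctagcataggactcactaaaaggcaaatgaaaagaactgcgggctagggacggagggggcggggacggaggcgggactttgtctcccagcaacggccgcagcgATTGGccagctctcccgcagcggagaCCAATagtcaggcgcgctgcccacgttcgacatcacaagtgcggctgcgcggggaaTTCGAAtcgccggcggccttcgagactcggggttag
Ect2: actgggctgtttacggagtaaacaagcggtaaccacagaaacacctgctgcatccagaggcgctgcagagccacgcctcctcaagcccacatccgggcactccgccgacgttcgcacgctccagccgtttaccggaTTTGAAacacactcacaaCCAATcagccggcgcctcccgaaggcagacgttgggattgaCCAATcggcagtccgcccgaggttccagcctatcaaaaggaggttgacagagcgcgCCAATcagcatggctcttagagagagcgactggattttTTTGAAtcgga
Cdc25b: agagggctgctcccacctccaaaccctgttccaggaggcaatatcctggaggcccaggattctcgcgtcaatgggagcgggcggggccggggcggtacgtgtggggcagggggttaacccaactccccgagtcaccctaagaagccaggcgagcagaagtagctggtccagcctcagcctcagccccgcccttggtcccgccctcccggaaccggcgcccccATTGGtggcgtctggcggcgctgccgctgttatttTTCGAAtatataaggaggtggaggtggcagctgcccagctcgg
Bub1b: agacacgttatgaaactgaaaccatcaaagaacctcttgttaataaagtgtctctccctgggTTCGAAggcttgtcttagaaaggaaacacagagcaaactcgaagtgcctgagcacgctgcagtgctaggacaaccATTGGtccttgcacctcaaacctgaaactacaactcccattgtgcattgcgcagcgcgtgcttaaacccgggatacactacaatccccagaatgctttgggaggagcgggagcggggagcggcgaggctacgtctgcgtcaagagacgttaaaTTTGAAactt
The windows are chr2:172370521-172370820 on the minus strand for Aurka, chr2:164769679-164769978 on the plus strand for Ube2c and chr2:127831810-127832109 on the minus strand for Bub1. Those of the least changed genes are chr3:27153829-27154128 on the minus strand for Ect2 (the first of its 2 windows), chr2:131186698-131186997 on the plus strand for Cdc25b and chr2:118597961-118598260 on the plus strand for Bub1b. All 6 held a CHR match centred within 50 bases of the start and at least 1 CCAAT match. Among these 6, the letters thus did not separate large differences from small ones, and no test was run.

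Nearly the whole set was lower in Ythdf2-KO. Of the 46 genes, all of which had enough counts to be tested, 45 were lower and 0 higher at an adjusted p under 0.05 by edgeR's quasi-likelihood test. Of all 17718 genes tested, 49.9% passed, 25.8% as lower and 24.1% as higher, and of the 10508 at a mean of 5 CPM (counts scaled to library size) or more, which include all 46, 36.9% were lower. The median log2 fold change was -0.34 over the 46 genes and -0.0053 over all genes tested. In 45 of the 46 every Ythdf2-KO library stood below every WT library, as it did for 28.9% of all genes. Of the 10508 genes at a mean of 5 CPM or more, 4104 were apart in the same way. DESeq2 and limma-voom also called 45 lower and 0 higher, and 0 were higher at an unadjusted p under 0.05. With upper-quartile scaling 43 of the 46 were lower, and 59.2% of the calls over all genes were then higher, against 48.3% with the TMM scaling used here. The members were chosen with earlier results of these data known, so these counts describe them and are no test of the list.

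The differences were modest. Of the 46 genes, 37 were at least 1.2-fold lower, 80.4% of them against 13.2% of all genes tested. At 1.5-fold, 3 genes were left, Aurka, Ube2c and Bub1, and their share of 6.52% lay close to the 5.89% of all genes. This count depends on the scaling. With upper-quartile scaling Ube2c and Bub1 fell short of 1.5-fold, with log2 fold changes of -0.55 and -0.53. These fold shares were not computed for only the genes at a mean of 5 CPM or more. The middle of the set, from the first to the third quartile, ran from -0.42 to -0.27 on the log2 scale. The standard deviation of the 46 log2 fold changes was 0.127, against a median SE of 0.0302 for 1 gene. Replicates lay close together, with an SD of 1.68% of the mean in WT and 1.95% in Ythdf2-KO for the median gene of the set.

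**Figure D1:**
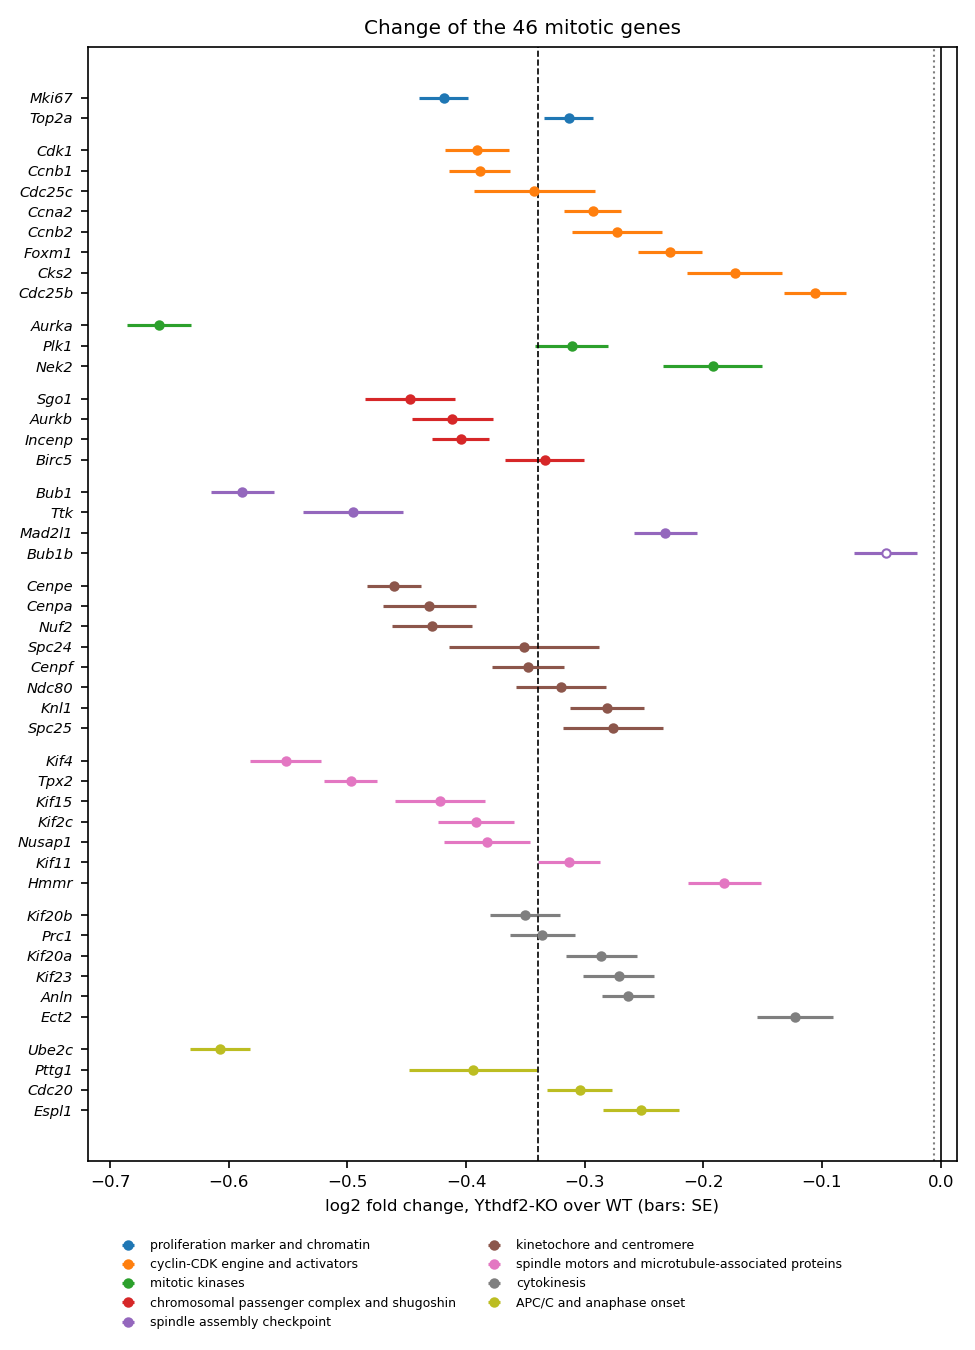
Change of each of the 46 mitotic genes, grouped by role. Points are log2 fold changes of Ythdf2-KO over WT and bars are SE; filled points passed the test (edgeR adjusted p under 0.05) and the open point, Bub1b, did not. The dashed line is the median of the 46 genes, -0.34, and the dotted line that of all genes tested, -0.0053.

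The set was lower in each Ythdf2-KO library. Its counts made up 0.567, 0.560 and 0.567% of all counts in WT replicates 1 to 3 and 0.452, 0.445 and 0.445% in Ythdf2-KO replicates 1 to 3. Relative to each gene's WT mean, the median of the 46 genes was -0.0066, 0.0060 and 1.6e-04 on the log2 scale in the WT libraries and -0.35, -0.35 and -0.33 in the Ythdf2-KO libraries. All 46 genes were below their WT mean in each Ythdf2-KO library, and the matching share of all genes was not computed. The WT libraries lie around 0 by construction, with 28, 20 and 23 of the 46 genes below their WT mean, so these counts are no comparison. In RNA from whole cultures, a smaller share of cells in G2 and M and less of these mRNAs per such cell cannot be told apart.

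**Figure D2:**
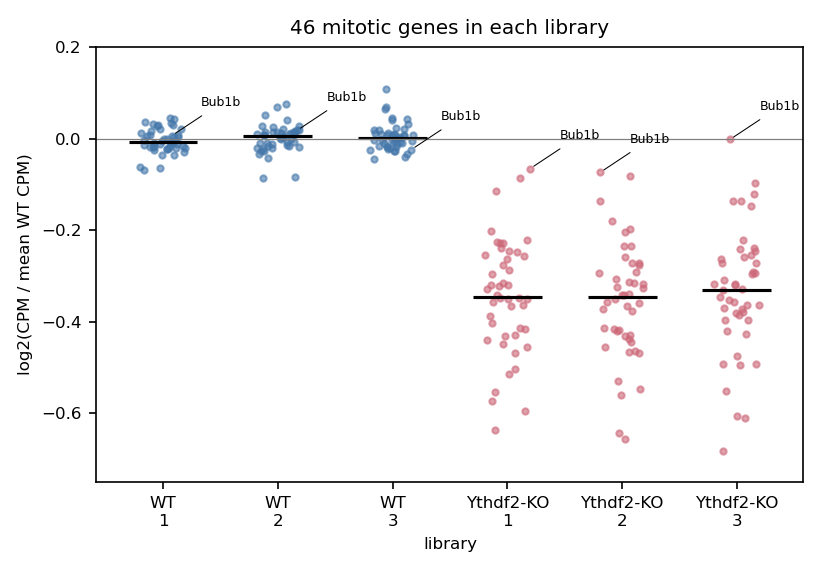
The 46 genes in each library, as log2 of TMM-scaled CPM over the gene's WT mean. Points are genes and black bars the library medians, which lie near 0 in WT by construction and at -0.35, -0.35 and -0.33 in Ythdf2-KO. Bub1b is labelled and lies near 0 in Ythdf2-KO replicate 3.

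The libraries held 55660473 to 68739046 counts in WT and 61167059 to 69497273 in Ythdf2-KO, and each of the 46 genes had at least 791 counts in every library. Ythdf2 mRNA itself was lower in every Ythdf2-KO library, with 0.816 times the WT level remaining; whether its reading frame is intact cannot be read from counts per gene. Some other measures moved with genotype. Mitochondrially encoded genes took 1.08 to 1.33% of counts in WT and 1.57 to 1.82% in Ythdf2-KO. Malat1, a nuclear RNA, stood at 376 to 511 CPM in WT and 576 to 722 CPM in Ythdf2-KO. Neat1, another nuclear RNA, did not pass, at 56.0 to 71.7 CPM in WT and 52.9 to 65.0 CPM in Ythdf2-KO. The ribosomal RNA gene Rn18s-rs5 did not pass either, with 1.32 to 2.36% of counts in WT and 1.54 to 2.22% in Ythdf2-KO. All 7 melanocyte markers were higher in Ythdf2-KO, their sum rising from between 237 and 241 CPM to between 1401 and 1431 CPM. Of 10 leukocyte and blood markers 3 could be tested, with Adgre1 lower, Lyz2 higher and Hba-a1 not passing. Adgre1 had only 2 to 22 counts per library. Single libraries stood out for Ptprc and Hba-a1. Ptprc, which was not tested, was at 1.07 CPM in Ythdf2-KO replicate 3 and at most 0.092 CPM in any other library. Hba-a1 was at 2.07 CPM in WT replicate 3 and at most 0.505 CPM in any other library. The sum of the 10 markers was 9.93 to 12.5 CPM in WT and 12.3 to 13.3 CPM in Ythdf2-KO. Most of it was Lyz2, at 9.47 to 10.2 CPM in WT and 10.7 to 13.1 CPM in Ythdf2-KO. What part these measures have in the mitotic differences was not tested.

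Both genes of the proliferation marker and chromatin group were lower. Mki67 encodes Ki-67, which coats mitotic chromosomes and is the standard marker of cycling cells. It stood at 624, 632 and 621 CPM in the 3 WT libraries, in replicate order, and 473, 464 and 467 CPM in the 3 Ythdf2-KO libraries. The groups did not overlap, and the spread within each was far smaller than the gap. Mki67 was 1.34-fold lower (log2 fold change -0.42 ± 0.020, SE, n = 3 per group; edgeR adjusted p = 3.53e-22). Top2a, which encodes the topoisomerase that untangles sister chromatids, was at 499, 489.9 and 491 CPM in the WT libraries and 395, 393 and 402 CPM in the Ythdf2-KO libraries, 1.24-fold lower. Per kilobase of transcript, Top2a had the highest WT level of the set at 94.5 CPM per kb, ahead of Ube2c at 77.3 and Tpx2 at 76.0, while Cenpf, with the longest transcript, had the lowest at 7.72.

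All 8 genes of the cyclin-CDK engine fell, by a median of -0.28 on the log2 scale. Cdk1, which encodes the mitotic kinase itself, stood at 145, 149 and 145 CPM in the WT libraries and 114, 108 and 113 CPM in the Ythdf2-KO libraries. Its groups were clearly apart, and it fell 1.31-fold (log2 fold change -0.39 ± 0.027, SE, n = 3 per group; edgeR adjusted p = 5.49e-17). Ccnb1, which encodes its main partner cyclin B1, fell 1.31-fold, from 166 ± 2.37 to 127 ± 3.53 CPM (SD, n = 3). Ccnb2 and Ccna2, the genes of cyclins B2 and A2, fell 1.21- and 1.23-fold. The pseudogenes Ccnb1-ps and Ccnb2-ps had 108 to 204 and 8 to 43 counts per library, few beside their parent genes, and how reads with several alignments were counted is not given in the sources used here.

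The activators of the engine included the smallest called difference of the set. Cdc25b encodes a phosphatase that starts CDK1 activation at the centrosome. It was at 125, 123 and 125 CPM in the WT libraries and 115, 117 and 114 CPM in the Ythdf2-KO libraries. The lowest WT library stood above the highest Ythdf2-KO library by a narrow margin, a 1.08-fold fall (edgeR adjusted p = 5.80e-04) that did not pass with upper-quartile scaling (edgeR adjusted p = 0.0859). Cdc25c, a second CDK1-activating phosphatase gene, fell 1.27-fold, and Cks2, the gene of a small CDK-binding subunit, 1.13-fold. Foxm1 encodes the transcription factor that drives much of the G2/M programme, and it fell 1.17-fold, from 118 ± 2.71 to 100.5 ± 0.463 CPM (SD, n = 3).

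Among the mitotic kinases, Aurka showed the largest fall of the 46 genes. Aurora A, its product, matures centrosomes and builds the bipolar spindle. Aurka mRNA stood at 137, 139.7 and 135 CPM in the WT libraries and 88.2, 87.2 and 85.6 CPM in the Ythdf2-KO libraries. Both groups were tight and far apart, a 1.58-fold fall (log2 fold change -0.66 ± 0.027, SE, n = 3 per group; edgeR adjusted p = 3.59e-25). Plk1, the gene of polo-like kinase 1, was 1.24-fold lower, going from 97.0 ± 2.46 to 78.1 ± 3.17 CPM (SD, n = 3). Nek2, whose kinase splits the centrosome pair, was at 39.1, 38.6 and 37.9 CPM in the WT libraries and 32.5, 33.6 and 35.1 CPM in the Ythdf2-KO libraries. Its groups did not overlap, but the fall was only 1.14-fold (edgeR adjusted p = 1.29e-04).

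**Figure D3:**
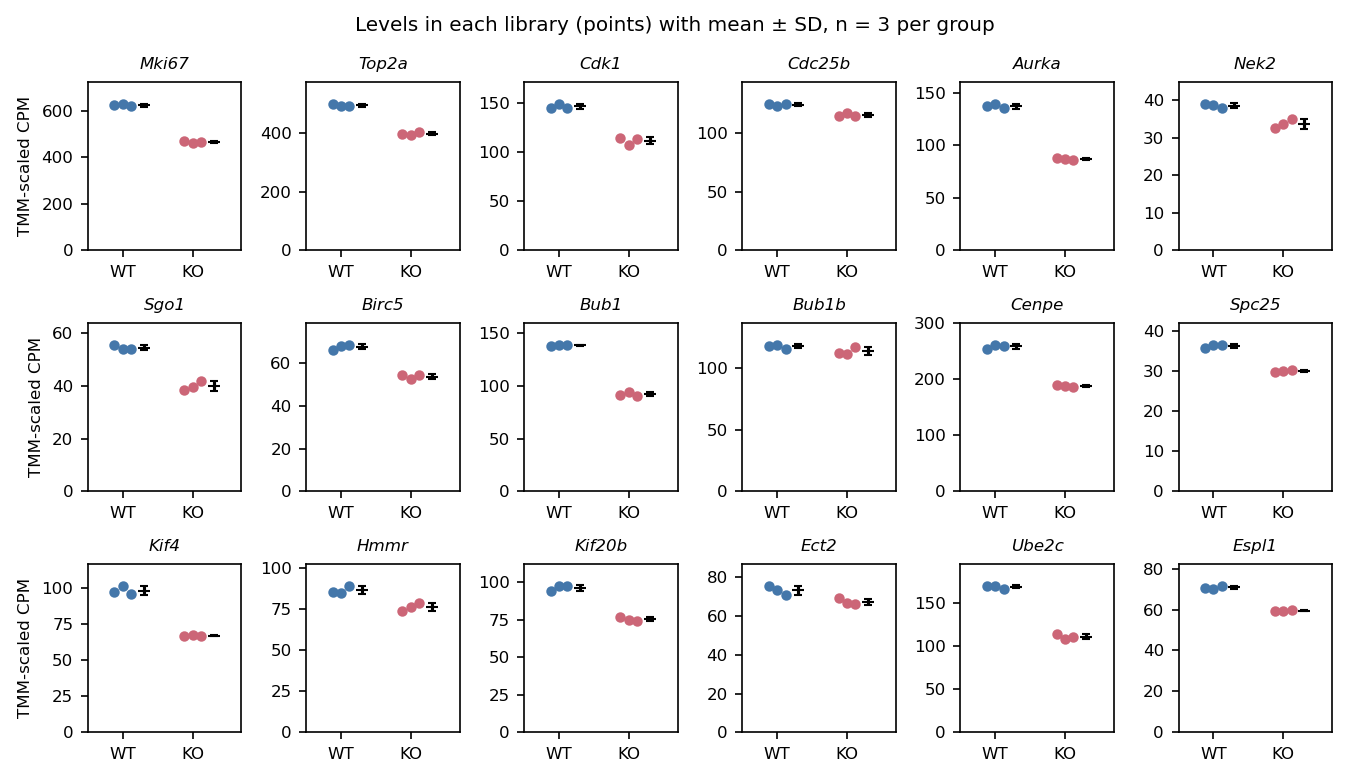
TMM-scaled CPM in each library for the genes with the largest and the smallest difference of each role. Points are libraries (WT blue, Ythdf2-KO, written KO, red), and black marks show mean ± SD, n = 3 per group; all axes start at 0. The groups overlap for Bub1b and are apart for the other 17 genes.

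The genes of the chromosomal passenger complex, which corrects faulty microtubule attachments, and the shugoshin gene Sgo1 all fell. Aurkb, the gene of its kinase Aurora B, fell 1.33-fold from 67.6 ± 0.319 to 50.8 ± 1.62 CPM, and Incenp, the gene of its scaffold, 1.32-fold from 187 ± 2.75 to 141 ± 2.22 CPM (SD, n = 3). Birc5 encodes survivin, which targets the complex to centromeres. It was at 66.1, 68.0 and 68.5 CPM in the WT libraries and 54.2, 52.4 and 54.2 CPM in the Ythdf2-KO libraries, apart by 1.26-fold (edgeR adjusted p = 8.02e-12). Sgo1, whose product shugoshin protects centromeric cohesion, stood at 55.5, 53.7 and 53.8 CPM in the WT libraries and 38.3, 39.4 and 41.8 CPM in the Ythdf2-KO libraries. Sgo1 had the largest fall of these 4 genes, 1.36-fold, with no overlap (edgeR adjusted p = 6.98e-14).

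The 4 spindle checkpoint genes ranged from one of the largest differences of the set to the smallest. Bub1 encodes a kinase that marks centromeres and recruits checkpoint proteins to kinetochores. It stood at 138, 138 and 139 CPM in the WT libraries and 91.5, 93.7 and 90.5 CPM in the Ythdf2-KO libraries. That was a 1.504-fold fall with tight, separate groups (log2 fold change -0.59 ± 0.026, SE, n = 3 per group; edgeR adjusted p = 1.30e-23). Bub1b encodes the related BUBR1, a part of the complex that inhibits the APC/C. It was at 118, 119 and 116 CPM in the WT libraries and 113, 112 and 118 CPM in the Ythdf2-KO libraries. Ythdf2-KO replicate 3 lay inside the WT range and the other two below it, and Bub1b was the 1 gene of the 46 that did not pass (log2 fold change -0.046 ± 0.027, SE, n = 3 per group; edgeR adjusted p = 0.156). It passed as lower without Ythdf2-KO replicate 3 (edgeR adjusted p = 0.0457; log2 fold change -0.07) and with length and GC offsets (edgeR adjusted p = 0.00423), and its sign turned with upper-quartile scaling (log2 fold change 0.0075).

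A ratio of 2 genes in 1 library needs no scaling between libraries. Bub1 counts were 1.16, 1.16 and 1.198 times those of Bub1b in WT replicates 1 to 3 and 0.812, 0.836 and 0.769 times in Ythdf2-KO replicates 1 to 3. Every Ythdf2-KO ratio thus lay well below every WT ratio, a difference of -0.54 on the log2 scale. Bub1 and Bub1b had the largest and smallest differences of their role, so this ratio restates that gap and is not separate evidence. With 3 libraries against 3, the exact two-sided permutation test gives 0.1, the smallest p it allows (0.133 after Benjamini-Hochberg adjustment over the 8 ratios). Ttk, the gene of the upstream checkpoint kinase MPS1, fell 1.41-fold from 43.8 ± 2.02 to 31.1 ± 0.512 CPM (SD, n = 3). Mad2l1, which encodes the APC/C inhibitor MAD2, fell 1.17-fold from 123 ± 1.40 to 105 ± 2.09 CPM.

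All 8 kinetochore and centromere genes fell, with log2 fold changes of -0.46 to -0.28. Cenpe, which encodes a kinetochore motor that moves chromosomes to the spindle equator, was at 254, 262 and 259.8 CPM in the WT libraries and 190.5, 187 and 186 CPM in the Ythdf2-KO libraries. The groups were apart by 1.38-fold (log2 fold change -0.46 ± 0.023, SE, n = 3 per group; edgeR adjusted p = 4.18e-22). Cenpa, the gene of the histone H3 variant that marks centromeres, fell 1.35-fold, though WT replicates ranged from 58.3 to 66.8 CPM. Cenpf, a gene of an outer kinetochore protein, fell 1.27-fold, and Knl1, the gene of the scaffold that binds BUB1 and BUBR1, 1.22-fold.

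The NDC80 complex, the rod that grips microtubule ends, has 4 subunits encoded by Ndc80, Nuf2, Spc24 and Spc25. Nuf2 fell 1.35-fold, Spc24 1.28-fold and Ndc80 1.25-fold. Spc25 stood at 35.7, 36.6 and 36.5 CPM in the WT libraries and 29.7, 29.9 and 30.2 CPM in the Ythdf2-KO libraries, separate groups and the smallest fall of the kinetochore genes at 1.21-fold (edgeR adjusted p = 3.19e-07). Per kilobase, the WT levels of the 4 were unequal, at 31.3 CPM per kb for Nuf2, 23.8 for Spc25, 22.3 for Ndc80 and 9.78 for Spc24. The log2 ratio of Ndc80 to Nuf2 counts was 0.11 higher in Ythdf2-KO and that of Spc24 to Spc25 0.076 lower, each without overlap of the groups (exact two-sided permutation test, p = 0.1 for each, the smallest possible).

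Spindle motor and microtubule-binding genes held several of the larger falls, with a median log2 fold change of -0.39 over 7 genes. Kif4, which encodes a chromokinesin that shortens midzone microtubules, was at 97.2, 102 and 96.1 CPM in the WT libraries and 67.0, 67.3 and 67.1 CPM in the Ythdf2-KO libraries. The Ythdf2-KO libraries were almost level and well below WT, a 1.47-fold fall (log2 fold change -0.55 ± 0.030, SE, n = 3 per group; edgeR adjusted p = 1.93e-20). Tpx2, whose product activates Aurora A on the spindle, fell 1.41-fold from 332 ± 3.44 to 235 ± 4.92 CPM (SD, n = 3). Aurka counts were 0.405 to 0.419 times those of Tpx2 in WT and 0.363 to 0.379 times in Ythdf2-KO, so the ratio was lower in every Ythdf2-KO library (exact two-sided permutation p = 0.1, the smallest possible).

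The kinesin-5 gene Kif11, whose motor pushes the spindle poles apart, fell 1.24-fold from 136 ± 2.61 to 109 ± 1.39 CPM (SD, n = 3), and Kif15, the gene of a motor that can share this task, 1.34-fold. Kif2c, which encodes a microtubule depolymerase at centromeres, fell 1.31-fold, and Nusap1, the gene of a microtubule-bundling protein, 1.30-fold. Hmmr, whose product RHAMM acts in spindle assembly and as a hyaluronan receptor, stood at 85.5, 85.0 and 89.4 CPM in the WT libraries and 73.9, 76.4 and 78.8 CPM in the Ythdf2-KO libraries. Its groups were separate, with the smallest fall of this role at 1.13-fold (edgeR adjusted p = 2.28e-06).

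Cytokinesis genes fell by 1.09- to 1.27-fold. Kif20b, which encodes a kinesin of late cytokinesis, was at 93.9, 97.3 and 97.8 CPM in the WT libraries and 77.1, 75.2 and 74.5 CPM in the Ythdf2-KO libraries. Its groups were apart by 1.27-fold (edgeR adjusted p = 4.20e-14). Prc1, the gene of the crosslinker of the central spindle, fell 1.26-fold, and the midzone kinesin genes Kif20a and Kif23 1.22- and 1.21-fold. Anln, which encodes the contractile-ring scaffold anillin, fell from 289 ± 3.44 to 240.5 ± 1.40 CPM (SD, n = 3), a log2 fold change of -0.26. Ect2 encodes the exchange factor that activates RhoA at the cleavage furrow. It was at 75.7, 73.4 and 71.1 CPM in the WT libraries and 69.1, 66.7 and 66.3 CPM in the Ythdf2-KO libraries. The groups were separate by a small margin, 1.09-fold (edgeR adjusted p = 0.00128), and Ect2 did not pass with upper-quartile scaling (edgeR adjusted p = 0.0709).

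All 4 genes of APC/C activity and anaphase onset fell. Ube2c encodes the ubiquitin-conjugating enzyme that starts chains on APC/C targets. It stood at 170.5, 171 and 167 CPM in the WT libraries and 114, 108 and 111 CPM in the Ythdf2-KO libraries. The groups were far apart, a 1.52-fold fall (log2 fold change -0.61 ± 0.026, SE, n = 3 per group; edgeR adjusted p = 1.29e-24). Cdc20, the gene of the mitotic APC/C activator, fell 1.23-fold, and Pttg1, the gene of securin, 1.31-fold. Espl1, which encodes separase, the protease that securin restrains, was at 70.4, 70.2 and 71.7 CPM in the WT libraries and 59.2, 59.2 and 59.9 CPM in the Ythdf2-KO libraries. These levels were separate and very even within groups, 1.19-fold apart (edgeR adjusted p = 4.07e-09).

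In 2 of the 8 ratios the groups overlapped. The log2 ratio of Aurkb to Incenp counts was -1.47 ± 0.028 in WT and -1.48 ± 0.053 in Ythdf2-KO, and that of Ccnb1 to Cdk1 0.18 ± 0.023 and 0.19 ± 0.085 (SD, n = 3; exact two-sided permutation p = 0.9 for each). The log2 ratio of Birc5 to Incenp was 0.071 higher in Ythdf2-KO and that of Pttg1 to Espl1 -0.14, that is lower (exact permutation p = 0.1 for each). None of the 8 ratios can pass at 3 libraries against 3, and the share of other gene pairs whose ratios do not overlap was not computed.

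The 46 genes differ widely in other properties. Their mean WT levels ran from 16.6 CPM for Spc24 to 626 CPM for Mki67, and their longest coding transcripts, in GENCODE's GRCm38 annotation joined by symbol, from 692 to 11130 bases with 37.7 to 56.1% GC. The size of the fall followed none of these closely: across the 46 genes Spearman's rho of the log2 fold change was -0.063 with level, 0.072 with transcript length and 0.048 with GC content, as a description across genes of the same libraries. The genes lie on 16 chromosomes, 9 of them on chromosome 2. Those 9 include Aurka, Ube2c and Bub1, with the largest falls, and also Bub1b and Cdc25b, with the smallest. Whether position plays a part was not tested. In the same annotation 13 of the 46 share exon bases with another gene, 11 of them on the opposite strand, such as Pdzd11 for Kif4 and Tnnc2 for Ube2c. The strand setting of the counting is not given in the sources used here; reads of such partners cannot be told apart.

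Most of them shared a promoter element. Of the 46 genes, 38 had a RefSeq window; Aurkb, Ccna2, Cdc25c, Foxm1, Incenp, Kif20a, Spc24 and Tpx2 are named only. A CHR match lay within 50 bases of the start in 27 of the 38, or 71.1%, against 6.35% of all 27025 genes with a window and 5.51% of all 32851 windows. A CCAAT match lay anywhere in the window of 27 of them, 71.1% against 41.1% of all genes, and both together, with the CHR near the start, in 22, 57.9% against 2.70%. Of 29 DNA replication genes with a window, 2 held a CHR match near the start. These are matches of letters, with overlapping ones counted on each strand, not measured binding.

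Among the 38 genes with a window, holding the letters did not go with a larger median fall. The difference was not tested, and genes lacking the exact letters were counted as without. The median log2 fold change was -0.31 for the 27 genes with a CHR match near the start and -0.39 for the 11 without, and -0.31 and -0.35 for the 27 with and the 11 without a CCAAT match. Bub1 and Bub1b, printed above, both carry CHR and CCAAT letters. In Bub1 the CHR match is centred 17 bases after the annotated start and in Bub1b 43 bases after it.

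**Figure D4:**
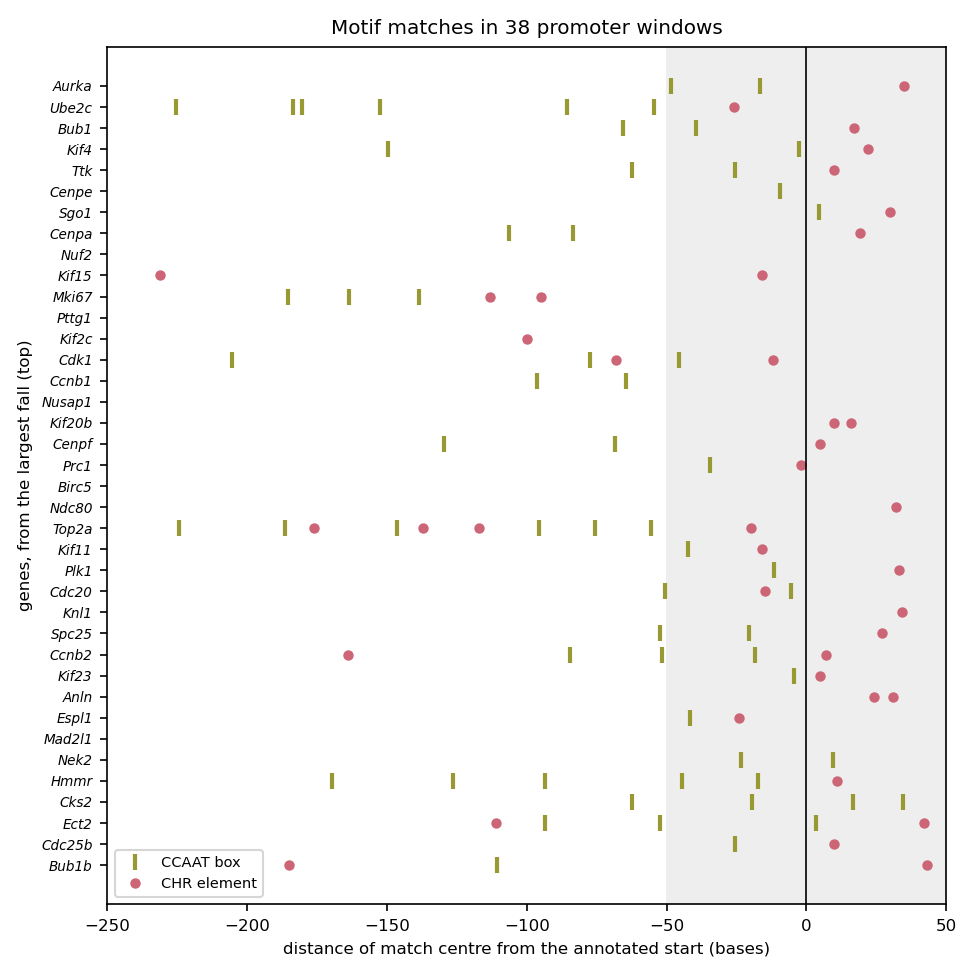
Matches to the CHR element (red points) and the CCAAT box (olive ticks) in the RefSeq promoter windows of 38 mitotic genes, 1 window per gene, ordered from the largest fall in Ythdf2-KO at the top. The x axis is the distance of the match centre from the annotated start in bases; the shaded band spans 50 bases on either side, where 27 of the 38 genes hold a CHR match, among them Aurka at the top and Bub1b at the bottom.

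Lists of further mitotic genes were lower to unequal extents. The other 7 mitotic lists were chosen by function but with earlier results of these data known, so their counts are a description. They held 149 other genes, all tested, of which 94 were lower and 6 higher (median log2 fold change -0.18). The share lower was 63.1%, against 25.8% of all genes tested and 36.9% of those at a mean of 5 CPM or more, and the shares of the single lists are to be read against these. Of 32 other kinetochore and centromere genes 24 (75%) were lower, led by Cenpl and Cenpi of the inner kinetochore at 1.49- and 1.45-fold, and 0 were higher. Of 25 other spindle and cytokinesis genes 20 (80%) were lower, led by Ckap2l, a spindle protein gene, at 1.61-fold. Haus7, the gene of a subunit of the augmin complex that branches spindle microtubules, was higher, with a log2 fold change of 0.53, while 6 of the 7 other augmin genes were lower and Haus5 did not pass.

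**Figure D5:**
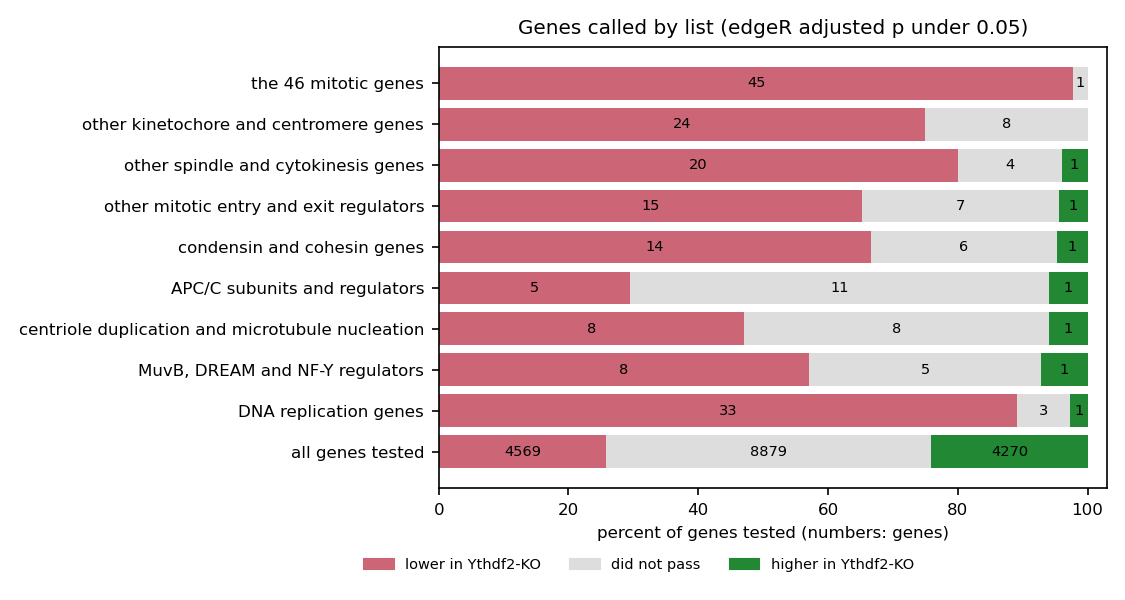
Share of the genes of each list that were lower (red), did not pass (grey) or were higher (green) in Ythdf2-KO by edgeR at an adjusted p under 0.05, with the number of genes in each bar. The 46 mitotic genes stand at the top and all 17718 genes tested at the bottom.

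Regulators of mitotic entry and exit were lower in 15 of 23 cases (65.2%), led by Cdca2, the gene of a chromatin phosphatase subunit, at 1.54-fold and Haspin, the gene of a histone kinase of centromeres, at 1.46-fold. Arpp19, an inhibitor of the phosphatase that opposes CDK1, was higher (log2 fold change 0.16). Condensin and cohesin genes were lower in 14 of 21 cases (66.7%), led by the cohesion genes Sgo2a and Cdca5 at 1.45- and 1.44-fold, and Smc3, a core cohesin gene, was higher (log2 fold change 0.065). All 8 condensin genes on the list were among the lower ones.

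Of 17 genes of the APC/C and its regulators 5 were lower, a share of 29.4% that lies near that of all genes. Those were its inhibitor gene Fbxo5 at 1.44-fold, its activator gene Fzr1 at 1.23-fold, its conjugating-enzyme gene Ube2s and the core subunit genes Anapc10 and Cdc16, while Anapc16 was higher (log2 fold change 0.15) and 11 did not pass. Centriole and nucleation genes were lower in 8 of 17 cases (47.1%), led by Plk4 and Stil at 1.32- and 1.29-fold, with Tubgcp2 higher (log2 fold change 0.12). Among 14 genes of the MuvB, DREAM and NF-Y regulators 8 (57.1%) were lower, led by Mybl2, the gene of B-MYB, at 1.32-fold and Lin54, the gene of the CHR-binding MuvB subunit, at 1.26-fold, and Nfya was higher (log2 fold change 0.093). Without WT replicate 3, Anapc16, Smc3, Tubgcp2 and Nfya were no longer called higher.

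DNA replication genes, which peak earlier in the cycle, were lower in 33 of 37 cases (89.2%), with a median log2 fold change of -0.26 against -0.34 for the 46 mitotic genes. They were led by Rrm2, the gene of a ribonucleotide reductase subunit, at 1.54-fold and Gins2, the gene of a helicase subunit, at 1.41-fold, and Mcm2 was higher (log2 fold change 0.12). The difference between the 2 sets was not tested.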

How the data were processed

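Polyadenylated RNA of 3 WT and 3 Ythdf2-KO libraries of B16-OVA cells was measured. The deposited values are whole counts per gene symbol. Per the submitters' processing notes, the authors used fastp 0.23.2, HISAT2 2.2.1, GRCm39 and featureCounts 2.0.6; the settings for strand and multi-mapping reads were not given in the sources used here.

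The fit used edgeR 4.0.16 in R 4.3.3. The default filterByExpr kept 17718 of 56734 genes, followed by TMM scaling and a robust quasi-likelihood test of genotype, and p-values were adjusted by Benjamini-Hochberg across these genes. Genes were called at an adjusted p under 0.05. CPM are TMM-scaled; the SE is the absolute log2 fold change over the square root of F. Within-library ratios of counts were compared by exact permutation. Motifs were searched in RefSeq promoter windows. Replicates differed beyond sampling noise (chi-square per degree of freedom 4.22 to 14.6 within a genotype and 116 to 136 between). The fit was tested on simulated data.

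Other settings tried were upper-quartile and RLE scaling, testing without a filter, a filter at a mean of 5 CPM, the replicate block, leaving out each library, DESeq2 1.42.0, limma-voom (limma 3.58.1), an adjusted p under 0.01, and offsets for transcript length and GC content. Figures used matplotlib 3.10.9.

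The members and lists were chosen with earlier results of these data known. Values in every library are given for the largest and smallest difference of each role and for genes that did not pass; from the other lists, the 2 largest called differences and called genes against the list's median are named. Other genes named, the promoters printed and the split by motif were chosen after values were seen. Protein, m6A sites and cell-cycle phase were not analysed here.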

Additional observations from a re-analysis of the deposited data

How the results depend on the processing

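Of the 46 genes, 43 kept a call as lower under every alternative run; the exceptions were Bub1b, Cdc25b and Ect2. With upper-quartile scaling 43 were lower, against 20.3% of all genes, the log2 fold change of Bub1b was 0.0075, the median of the 46 genes was -0.29 and that of all genes 0.049; 59.2% of all calls were then higher, against 48.3% with TMM, and 18 genes of the other lists were higher rather than 7. Set against the median of all genes, that of the 46 genes was -0.33 under both scalings. Without a filter these medians were -0.32 and 0.017, and with a filter at a mean of 5 CPM the median of the 46 genes was -0.32 and 12 genes of the other lists were higher. At an adjusted p under 0.01 the latter were 4, and with length and GC offsets the median of all genes was -0.021 and 46 of the 46 genes were lower. Single estimates moved by more than their SE. Over all alternatives the log2 fold change ran from -0.55 to -0.36 for Mki67 and from -0.47 to -0.29 for Cenpf. For Knl1 it ran from -0.38 to -0.23 and for Espl1 from -0.38 to -0.20. Leaving out each library gave only -0.43 to -0.40 for Mki67. The SE of each gene does not include this spread between settings. The cause was not tested.

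Leaving out each library gave 45 to 46 genes lower, a median of the 46 genes of -0.34 to -0.33, a median of all genes of -0.0079 to 0.0049, and 3 to 9 genes of the other lists higher, 3 without WT replicate 3. The log2 ratio difference ranged from -0.027 to 0.023 for Aurkb and Incenp and from -0.043 to 0.041 for Ccnb1 and Cdk1, so neither kept its sign.

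Replicate numbers did not pair the libraries: deviations of same-numbered libraries correlated at 0.046, -0.093 and -0.12, and WT replicate 2 correlated best with Ythdf2-KO replicate 3. The replicate block moved the calls over all genes from 8839 to 8541 and left 45 of the 46 genes lower; paired by number, the sign-flip test of the ratios cannot go below 0.25. The lowest count of any of the 46 genes in a library was 791, so depth kept none of them from being tested.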
